A study of Mus musculus with 6 samples.

Results

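The immature and mature B cells of the healing mouse rotator cuff made up 1718 of 85339 cell barcodes past the filter (2.01%) in 6 single-cell RNA libraries. A barcode was taken into the analysis when it held at least 1000 unique molecular identifiers (UMIs, each standing for 1 captured RNA molecule), at least 200 genes and at most 10% mitochondrial UMIs. It was called a B cell when it held at least 2 UMIs of Cd79a, which encodes a signalling chain of the B cell receptor, and at least 1 UMI of Ms4a1 (CD20) or Ighd (the IgD heavy chain). It also had to hold no UMI of Vpreb1, Igll1 or Dntt, genes of B cell precursors, none of the division genes Mki67 and Top2a, and none of Siglech, a marker of plasmacytoid dendritic cells. At most 2 UMIs of the macrophage genes C1qa, C1qb and C1qc were allowed, and Col1a1, Col1a2 and Col3a1 had to stay under 0.5% of UMIs. These genes chose the cells, so their levels in them are a description and are not tested here.

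B cells form in the bone marrow, where pro-B and pre-B cells rearrange the immunoglobulin heavy and light chain genes. A cell that displays a complete receptor of the IgM class becomes an immature B cell, carries Cd93 for a time, and then gains IgD, CD23 (Fcer2a) and MHC class II as it matures and begins to circulate through lymphoid tissue. An activated B cell can switch its heavy chain to an IgG or IgA class and become a plasmablast or plasma cell, which lowers its MHC class II and fills its endoplasmic reticulum with secreted antibody. Tendon and its insertion hold few B cells at rest, and the insertion lies directly on bone with its marrow.

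The supraspinatus tendon was cut and sutured back to the humeral head in adult mice, and the healing insertion was collected at day 7 and dissociated for droplet sequencing with a 3' chemistry. There were 3 libraries from wild-type C57BL/6 mice and 3 from Nlrp3-/- mice, which lack the NLRP3 inflammasome sensor in every cell and had the same surgery. The harvested insertions were pooled. The sources used here give 3 per genotype, and do not state whether a library came from 1 mouse or several, or the sex of the mice. The titles put all 3 knockout libraries in the Nlrp3 group, whereas the genotype field of 2 of them names Nlrp4 and Nlrp5, and the titles were followed.

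Each library held between 97042713 and 134901999 UMIs, and 9903 to 22048 of its barcodes passed the filter. B cells were small in RNA content, with a median of 1569 to 1822 UMIs per library, against 2069 to 7421 over all barcodes past the filter. Nlrp3-/- replicate 1 stood apart, with the most barcodes, the lowest median of UMIs and 48 B cells. Of 84579 different barcode sequences, 758 occurred in at least 2 libraries, but none was a B cell in more than 1. Xist, the RNA of the inactive X chromosome, had 0 UMIs in the B cells of the 3 wild-type libraries and 163, 2268 and 733 in the Nlrp3-/- libraries, and the Y-linked gene Ddx3y had 65, 76 and 37 in wild type and 0 in each knockout library. Genotype and sex therefore cannot be told apart in any comparison between the groups, and in either case p-values measure only the spread between these libraries.

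The cells were checked against immunoglobulin and receptor genes that the rule did not use. After every cell was thinned at random to 1000 UMIs, Ighm, the IgM heavy chain, was found in 83.4%, 81.3% and 92.0% of wild-type and 81.2%, 92.6% and 86.5% of Nlrp3-/- B cells, in replicate order. In T cells of the same libraries, which do not make it, the share was 2.37% to 10.5%. Igkc, the kappa light chain, was found in 89.0% to 97.9% of B cells and in 3.88% to 18.1% of T cells. Cd79b, the partner chain of Cd79a, was found in 62.5% to 78.4% of B cells. At the limits of the rule, there were 271 B cells with exactly 2 Cd79a UMIs and 157 barcodes left out with exactly 1, and 36 barcodes were left out for a single UMI of a precursor gene. Among the barcodes counted at these limits, the largest set left out was 926 with no UMI of Ms4a1 or Ighd, against 463 B cells with exactly 1.

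The share of B cells among the barcodes past the filter was compared between the genotypes first. B cells were 307 of 12636, 386 of 15515 and 200 of 9903 barcodes in the wild-type libraries, or 2.43%, 2.49% and 2.02%. In the Nlrp3-/- libraries they were 48 of 22048, 570 of 11824 and 207 of 13413, or 0.218%, 4.82% and 1.54%. The highest and the lowest share both belonged to the knockout, and the groups overlapped. The mean share was 2.31% ± 0.255 (SD, n = 3) in wild type and 2.19% ± 2.37 (SD, n = 3) in Nlrp3-/-, with p = 1.0 in a two-sided exact permutation test whose smallest possible p is 0.1. The edgeR quasi-likelihood test on the numbers of B cells gave a log2 difference of -0.08 with a standard error of 1.09. Counting error was small beside this spread, as the 95% Wilson interval of Nlrp3-/- replicate 1 ran from 0.164% to 0.289% and that of replicate 2 from 4.45% to 5.22%. Among B cells plus the 1625 pro-B and pre-B cells, the B cells made up 54.4%, 73.9% and 28.0% in wild type and 44.9%, 57.4% and 46.8% in Nlrp3-/-. Barcodes in neither class were not counted, such as the 926 with no UMI of Ms4a1 or Ighd and 311 left out for division genes. The share of B cells in these 2 classes did not separate the groups either (exact permutation p = 1.0).

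**Figure D1:**
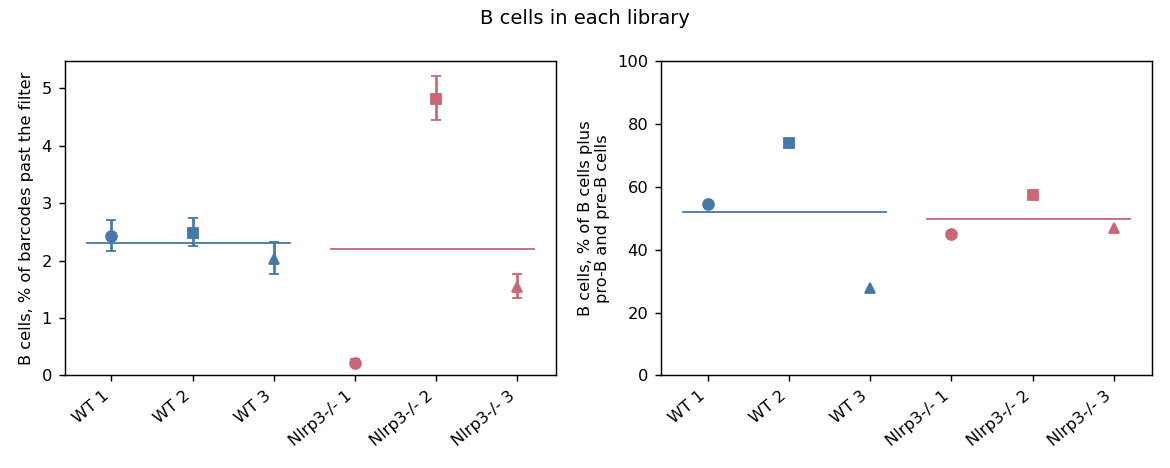
Share of B cells in each library. The left panel gives B cells as a percent of the barcodes past the filter, with 95% Wilson intervals for counting error as bars, and the right panel gives them as a percent of B cells plus pro-B and pre-B cells. Blue points are wild type (WT), red points Nlrp3-/-, and horizontal lines the group means. The knockout points at 0.218% and 4.82% lie below and above all 3 wild-type points.

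The genes that set B cells apart from all other barcodes, named by the highest ratios of mean level in CPM (UMIs scaled to a library total of 1000000), were led by the IgM Fc receptor Fcmr, at 276 CPM in B cells and 1.12 CPM in the other barcodes. Bank1, a scaffold of B cell receptor signalling, stood at 201 against 2.08 CPM, and Ly6d, an early B lineage surface protein, at 2594 against 51.1 CPM. Tnfrsf13c, the receptor of the survival factor BAFF, stood at 224 against 4.68 CPM, and Ccr7, the receptor that leads lymphocytes into lymph nodes, at 301 against 6.69 CPM. The list also held the transcription factors Pax5, Spib, Ikzf3 and Irf4. All of these were higher in the B cells than in the other barcodes of 6 of 6 libraries. Pro-B and pre-B cells also held these factors. Pax5 averaged 305 CPM in B cells and 228 CPM in these precursors, Irf4 248 against 146 CPM and Spib 199 against 91.3 CPM. Ikzf3 averaged 118 CPM in B cells, 36.6 CPM in these precursors and 61.7 CPM in T cells.

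Against the pro-B and pre-B cells of the same libraries, genes of antigen presentation were among those higher in B cells. Genes of division were among those lower. With the antibody-secreting cells described below set aside, Fcmr averaged 314 CPM in B cells and 3.70 CPM in precursors, and Fcer2a 72.1 against 0.343 CPM. Cd74, the invariant chain that accompanies MHC class II, averaged 7565 against 354 CPM, and H2-Eb1 and H2-Aa, 2 class II chains, averaged 1817 against 104 CPM and 1799 against 114 CPM. The activation marker Cd83 and the receptor-induced factor Egr3 were higher as well, at 118 against 2.98 CPM and 109 against 2.80 CPM. In the other direction stood Pclaf, which acts at the replication fork, with 12.2 CPM in B cells and 1076 CPM in precursors, the surrogate light chain gene Vpreb2, with 0.409 against 145 CPM, and the linker histone Hist1h1b, with 3.25 against 610 CPM. Each of these differences had the same direction in 6 of 6 libraries. Precursors were chosen for Vpreb1, Igll1 or Dntt and B cells for the lack of division genes, so these ratios describe the split and carry no test.

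The B cells were spread over several stages of maturation. IgD transcripts were found, after thinning, in 35.2%, 34.7% and 42.5% of wild-type and 20.8%, 30.4% and 27.1% of Nlrp3-/- B cells. The 3 knockout libraries lay below the 3 wild-type libraries, with means of 26.1% ± 4.83 (SD, n = 3) and 37.5% ± 4.37 (SD, n = 3). Without thinning the shares were 52.1%, 53.1% and 59.0% against 43.8%, 47.7% and 41.5%, and with thinning to 2000 UMIs, which 19 to 170 B cells per library reach, the groups overlapped. T cells held Ighd in at most 0.303% of cells, which bounds the background shared by all cells. Ighd is 1 of the genes of the rule, so its shares are given without a test, and Ms4a1, its alternative, was found in 58.6%, 58.0% and 58.5% of wild-type and 62.5%, 69.3% and 66.7% of Nlrp3-/- B cells, again without overlap and in the opposite direction.

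Cd93, carried by immature B cells, was found in 3.91%, 1.55% and 5.50% of wild-type and 6.25%, 9.12% and 3.86% of Nlrp3-/- B cells after thinning, and the groups overlapped (exact permutation p = 0.3, where 0.1 is the smallest that 3 against 3 can give). T cells reached 0.578% to 4.35% for this gene, so the lower of these shares cannot be read as expression. Unthinned, Cd93 was found in 6.19%, 4.15% and 12.5% against 8.33%, 14% and 8.70%. Fcer2a, the mature follicular marker CD23, was found in 7.49%, 13.0% and 7.50% of wild-type and 8.33%, 5.79% and 7.25% of Nlrp3-/- B cells (exact permutation p = 0.4, overlapping). Its background was low, with 1 of 1404 T cells and none of the thinned neutrophils or precursors positive. Unthinned, the Fcer2a shares were 12.1%, 17.1% and 11.5% against 10.4%, 9.12% and 9.18%, which did not overlap (exact permutation p = 0.1).

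Other maturation genes varied within both genotypes. Rag1, a subunit of the recombinase that rearranges receptor genes, was still found in 4.56%, 3.89% and 15.5% of wild-type and 4.17%, 12.5% and 8.21% of Nlrp3-/- B cells, against at most 0.595% of T cells. Vpreb3, a gene of late precursors and immature B cells, ran from 33.9% to 61.6% and Cxcr4, the receptor that holds cells in marrow, from 26.9% to 59.0%, with wild-type replicate 3 and Nlrp3-/- replicate 2 holding the 2 highest values of each. Ccr7 had the opposite order in wild type, with 35.5%, 43.3% and 20%, against 25%, 19.1% and 22.7% in Nlrp3-/- (exact permutation p = 0.3). Of 31 genes whose thinned shares were compared, 7 did not overlap between the groups, namely Ly6d, Cd24a, Klf2, Cd38, Nlrp3 and the rule's own Ighd and Ms4a1, and in the summed counts described below 18.2% of all genes did not overlap. Ly6d was found in 67.1%, 69.9% and 79.0% of wild-type and 87.5%, 86.7% and 82.6% of Nlrp3-/- B cells, Cd24a in 27.4%, 29.3% and 35.0% against 37.5%, 52.3% and 37.2%, and Klf2, a factor of quiescent circulating cells, in 25.7%, 19.9% and 22.0% against 39.6%, 33.7% and 26.1%. All 3 were higher in each knockout library, although unthinned shares of Ly6d (exact permutation p = 0.2) and Cd24a (p = 0.3) overlapped between the groups.

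**Figure D2:**
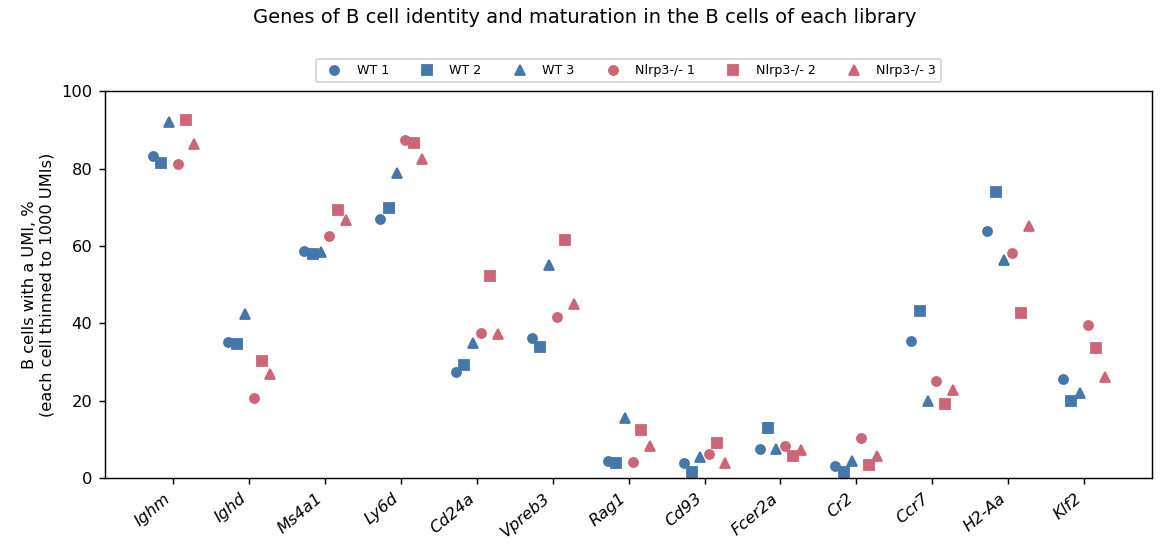
Percent of B cells with at least 1 UMI of genes of identity and maturation, with each cell thinned to 1000 UMIs. Each point is 1 library, blue for wild type and red for Nlrp3-/-, with circles, squares and triangles for replicates 1 to 3. Ighd lies lower and Ly6d and Cd24a lie higher in all 3 knockout libraries, while Rag1, Vpreb3 and H2-Aa are mixed.

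B cells with Cd93 were then set beside B cells with Fcer2a, as the 2 transcripts hardly met in 1 cell. Without thinning, 157 B cells held Cd93 and no Fcer2a, 197 held Fcer2a and no Cd93, and 5 held both. Of 3715 genes with enough signal, at 50 CPM or more, 440 had the same direction between these cells in all 6 libraries. The split was made on detected UMIs, so it is a description. Rag1 averaged 186 CPM in the Cd93 cells and was at 0 in the Fcer2a cells of every library. Myb, a factor of precursors, averaged 167 against 21.3 CPM, Il7r, the IL-7 receptor, 97.2 against 3.15 CPM, and Vpreb3 1331 against 315 CPM. MHC class II ran the other way, with H2-Aa at 382 CPM in Cd93 cells and 3236 CPM in Fcer2a cells, H2-Eb1 at 412 against 3114 CPM, and Cd74 at 2672 against 11216 CPM. The complement receptor Cr2, Ccr7 and Ighd were also higher in Fcer2a cells in 6 of 6 libraries, with median log2 differences, on a scale of CPM plus 10, of -2.51, -1.52 and -1.61 for Cd93 cells over Fcer2a cells.

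The Cd93 cells also carried genes of blood vessel lining, which uses Cd93 too. Igfbp7, Col4a1 and Cdh5, the endothelial cadherin, had the highest ratios of all, and Fabp4 and Ly6c1 were also among the 10 highest. Of the 157 Cd93 cells, 16 held at least 2 UMIs of the endothelial genes Vwf, Cdh5, Flt1, Kdr, Tie1, Egfl7, Emcn, Plvap and Esam. Of the 197 Fcer2a cells it was 0, which allows a share of up to 1.52%. Leaving out all 18 B cells with such UMIs put the unthinned Cd93 shares at 5.57%, 3.91% and 12.5% in wild type and 6.38%, 13.0% and 6.44% in Nlrp3-/-. In the comparison without these cells, which left 141 Cd93 cells (2 of them in Nlrp3-/- replicate 1), 270 of 3649 genes had the same direction in all 6 libraries, 178 of them among the 440. Rag1 then averaged 277 CPM against 0, Myb 296 against 21.3 CPM, Il7r 166 against 3.15 CPM and Vpreb3 2249 against 315 CPM. H2-Aa averaged 564 against 3236 CPM and Cd74 3695 against 11216 CPM. These 6 genes kept their direction in 6 of 6 libraries, as did Ccr7 and Ighd, whereas Cr2 was lower in the Cd93 cells of 5. Igfbp7 stood at 70.5 against 10.5 CPM, and was higher in the Cd93 cells of 4 libraries and lower in those of 1. Antibody-secreting cells, described below, were also among the Cd93 cells. They held 7 of the 253 knockout Cd93 UMIs and 0 of the 100 wild-type ones. With the endothelial UMIs left out as above, Jchain still averaged 2694 against 6.26 CPM and Ighg2c 8330 against 1.94 CPM. Each of these 2 genes was higher in the Cd93 cells of 2 libraries and lower in those of 1. The part of antibody-secreting cells in the differences above was not tested.

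**Figure D3:**
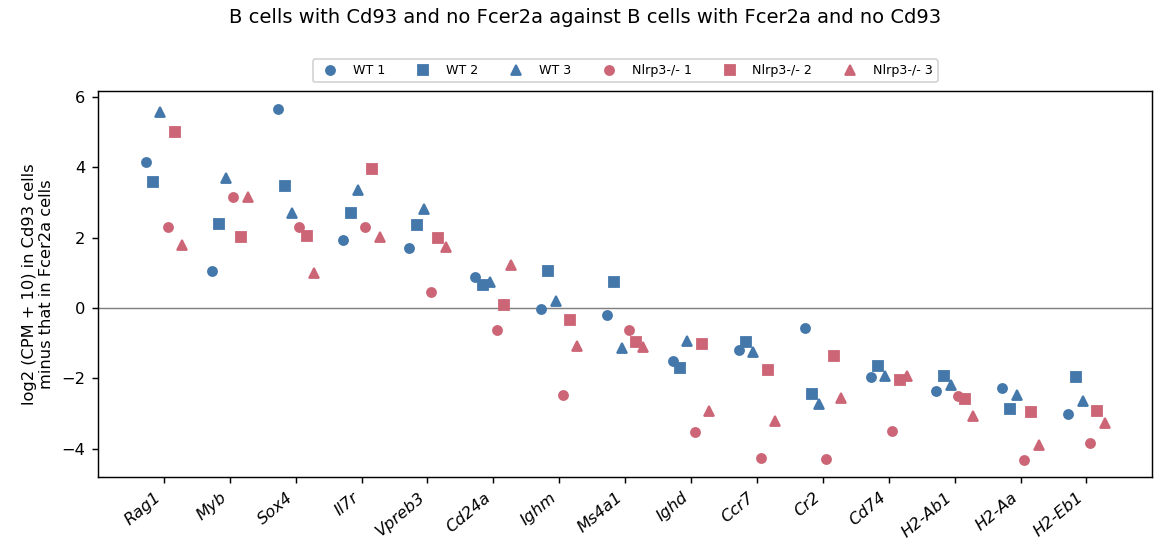
Difference between B cells with Cd93 and no Fcer2a and B cells with Fcer2a and no Cd93, as log2 of CPM plus 10, for each library (blue wild type, red Nlrp3-/-, circles, squares and triangles for replicates 1 to 3). Rag1, Myb, Sox4, Il7r and Vpreb3 lie above 0 and Ighd, Ccr7, Cr2 and MHC class II genes below 0 in all 6 libraries. Nlrp3-/- replicate 1 rests on 3 and 4 cells.

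Light chains gave a further readout that the rule did not use. Among B cells with at least 3 UMIs of light chain constant regions and at least 90% of them of 1 kind, lambda cells were 14 of 169, 19 of 187 and 12 of 130 in wild type, or 8.28%, 10.2% and 9.23%. In Nlrp3-/- they were 2 of 24, 40 of 311 and 15 of 152, or 8.33%, 12.9% and 9.87%. The groups overlapped, with means of 9.23% ± 0.938 and 10.4% ± 2.30 (SD, n = 3 each, exact permutation p = 0.6). A large part of the cells could not be called, since 25.1% to 50% of those with enough UMIs held both kinds above the limit. In barcodes of at most 100 UMIs, which hold free RNA, lambda made up 2.12%, 6.15% and 1.73% of light chain UMIs in wild type and 2.5%, 20.1% and 10.4% in Nlrp3-/-. Nlrp3-/- replicate 2 thus had the highest lambda share both in B cells and in these barcodes, and the part of free RNA in the lambda calls was not tested.

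Heavy chain classes differed more. At least 2 UMIs of Ighg1, Ighg2b, Ighg2c, Ighg3 or Igha, the switched classes, were held by 4 of 307, 2 of 386 and 2 of 200 wild-type B cells, or 1.30%, 0.518% and 1.00%. In Nlrp3-/- they were 5 of 48, 24 of 570 and 16 of 207, or 10.4%, 4.21% and 7.73%. All knockout libraries lay above all wild-type libraries, with means of 7.45% ± 3.11 and 0.940% ± 0.396 (SD, n = 3 each) and an exact permutation p = 0.1, the smallest possible. In T cells the same count was met by none of the wild-type cells and by 0%, 0.806% and 0.909% of the knockout cells. A part of the difference lay in a small set of cells with very high immunoglobulin counts. Without them the shares were 0.980%, 0.518% and 0.503% in wild type and 4.44%, 2.33% and 2.55% in Nlrp3-/-, still without overlap (exact permutation p = 0.1).

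This set was 27 B cells with at least 5 UMIs of Jchain, the joining chain of secreted antibody. It was defined after the counts were seen and is described without a test. The limit fell into a gap, as the lowest of the 27 held 23 Jchain UMIs and no other B cell more than 2. There was 1 such cell in wild-type replicate 1, 0 of 386 in replicate 2, which allows a share of up to 0.777%, and 1 in replicate 3, against 3, 11 and 11 in the Nlrp3-/- libraries. These were 0.326%, 0% and 0.50% of wild-type and 6.25%, 1.93% and 5.31% of Nlrp3-/- B cells. Immunoglobulin genes took a median of 57.5% of their UMIs (8.67% to 69.7%), whereas in the remaining B cells the median was 1.15% to 1.68% per library and no cell exceeded 5.95%.

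The antibody-secreting cells were class-switched. The leading heavy chain was Ighg2c in 13, Ighg2b in 7, Igha in 4 and Ighg1 in 3, and Ighm led in none. The leading class held at least 96.1% of the heavy chain UMIs of a cell. By light chain 26 were kappa and 1 was lambda. The cells were large, with a median of 18192 UMIs (1741 to 32447). The 2 smallest, both in Nlrp3-/- replicate 1 and led by Igha, held under 2000 UMIs and under 10% immunoglobulin. H2-Aa was at 0 in 17 of the 27. They passed the rule on few transcripts, as 7 held exactly 1 UMI of Ms4a1 or Ighd, and 13 were among the 102 B cells that the doublet score Scrublet marked. The 13 were both wild-type cells and all 11 of Nlrp3-/- replicate 3. Without them the numbers were 0, 0 and 0 in wild type and 3, 11 and 0 in Nlrp3-/-, so the groups were no longer apart. A heavy chain V gene had at least 1 UMI in 25 of the 27, and the leading ones were 21 different genes. Ighv1-80 recurred in 3 cells and Ighv1-54 in 2 cells of Nlrp3-/- replicate 3, and Ighv1-53 in 2 cells of different libraries. Iglv1 was the leading light chain V gene in 17 of the 26 kappa cells, with 19 to 356 UMIs, an assignment that is uncertain because V genes share sequence and these are lambda V transcripts.

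These few cells held most of the Igkc UMIs of the B cells in each library that had them, and a smaller part of all UMIs. The antibody-secreting cells held 74.9%, 0% and 77.2% of the Igkc UMIs of the wild-type B cells and 92.9%, 88.8% and 96.7% of those of the Nlrp3-/- B cells. Of all B cell UMIs they held 3.58%, 0% and 3.99% in wild type and 14.7%, 12.8% and 36.2% in Nlrp3-/-.

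**Figure D4:**
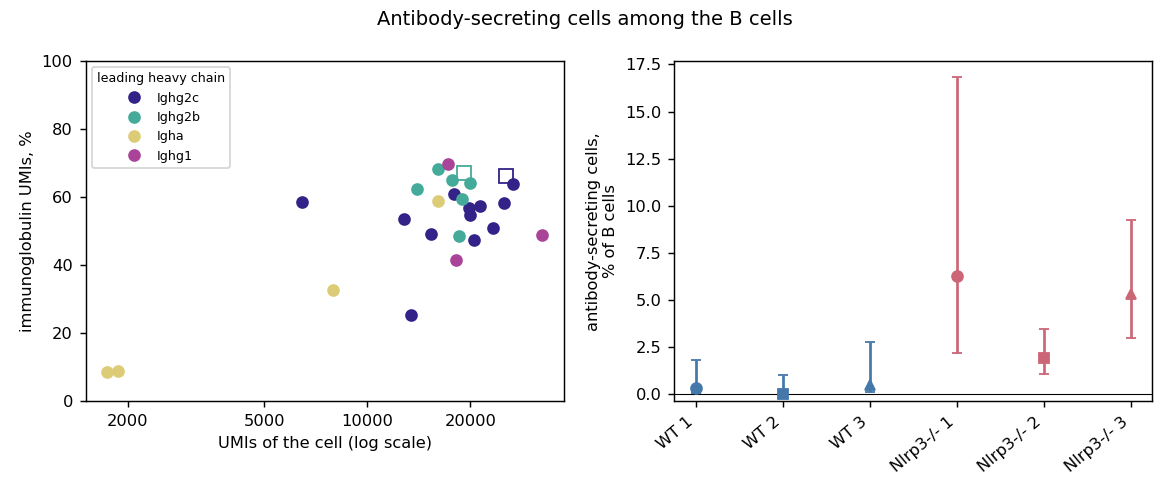
Antibody-secreting B cells, defined by at least 5 Jchain UMIs. On the left, each point is 1 cell, with its UMIs on a log axis and the percent of them from immunoglobulin genes, coloured by the leading heavy chain (filled circles Nlrp3-/-, open squares wild type). On the right, their percent among the B cells of each library with 95% Wilson intervals for counting error. The knockout libraries stand at 6.25%, 1.93% and 5.31%, and the wild-type libraries at or below 0.50%.

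Expression was then compared between the genotypes on the UMI counts summed over the B cells of each library. With edgeR's quasi-likelihood test and Benjamini-Hochberg adjustment, 80 of 6435 genes (1.24%) passed an adjusted p of 0.05, 44 of them higher in Nlrp3-/- (0.684%) and 36 lower (0.559%). The split moved with single libraries, to 74 higher and 17 lower without Nlrp3-/- replicate 2 and to 33 higher and 58 lower without wild-type replicate 3. An unadjusted p under 0.05 was reached by 843 genes. Levels of the 2 groups did not overlap for 1169 genes (18.2%), 534 with higher (8.3%) and 635 with lower (9.87%) levels in the knockout. In bulk sums of this kind, fewer cells of a type and less RNA per cell cannot be told apart. Leaving out wild-type replicate 2 left 12 genes and leaving out Nlrp3-/- replicate 3 left 44. When every cell was thinned to 1000 UMIs before summing, so that each counted alike, 12 of 3742 genes passed, 5 higher and 7 lower.

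The targeted gene was checked first. Nlrp3 (chr11:59541568-59566956, plus strand, GRCm38) stood at 75.0, 122 and 116 CPM in wild-type B cells and at 0 in all 3 Nlrp3-/- libraries, after TMM scaling as for the gene levels given from here on (adjusted p = 0.0002, edgeR). The knockout B cells held no Nlrp3 UMI, which for 570 thinned cells of replicate 2 allows a share of up to 0.526%. Of the 196 wild-type UMIs, however, 170 lay in 61 B cells that also held more than 20 UMIs of the neutrophil genes S100a8 and S100a9, and 26 lay in the remaining 826. After thinning, 3.58%, 3.89% and 4.0% of wild-type B cells held an Nlrp3 UMI, near the 2.31%, 6.03% and 4.17% of T cells and under the 25.2%, 44.6% and 31.0% of neutrophils. The share in B cells thus lay above that in T cells in wild-type replicate 1 and below it in replicates 2 and 3, and this difference was not tested. The sex-linked genes followed the sex difference noted above, with Xist at 1225, 1601 and 1399 CPM and Tsix at 37.6, 48.0 and 24.8 CPM in Nlrp3-/- and both at 0 in wild type. Ddx3y, Eif2s3y and Uty were at 0 in Nlrp3-/-, and Kdm5d did not pass the filter on low counts. Xist and Tsix overlap in the genome, so their reads are told apart only by strand. Of 188 tested genes on the X chromosome 7 were called, of 4 on the Y chromosome 3, and of 208 within 20 Mb of Nlrp3 on chromosome 11 it was 3, namely Nlrp3, Uqcrq and Sparc (1.44%, against 1.11% of genes placed elsewhere outside X and Y).

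The other calls were sorted by the B cells that held their UMIs in the group where the gene was higher. In 21 of the 44 genes higher in Nlrp3-/-, at least 50% of the UMIs lay in the 25 antibody-secreting cells of that group. They included genes of the secretory pathway, and also Iglv1, Iglv3, Oosp1, Tmem176a, Tmem176b, Eaf2 and Rexo2. Derl3, which helps to return misfolded proteins from the endoplasmic reticulum, stood at 5.88, 0 and 6.20 CPM in wild type and 67.6, 42.4 and 122 CPM in Nlrp3-/-, with 93.2% of the knockout UMIs in those cells. It rose by 4.27 ± 0.64 on the log2 scale (± standard error throughout, adjusted p = 0.0094). Sdf2l1, a subunit of a chaperone complex, stood at 14.7, 23.3 and 33.1 against 195, 80.5 and 271 CPM (2.91 ± 0.46, adjusted p = 0.011). Xbp1, the transcription factor of the plasma cell programme, stood at 91.2, 53.4 and 147 against 278, 260 and 645 CPM (2.07 ± 0.39, adjusted p = 0.028), and Mzb1, a chaperone of immunoglobulin assembly, at 387, 249 and 391 against 1375, 901 and 2572 CPM (2.24 ± 0.34, adjusted p = 0.0097). Derl3 and Sdf2l1 were named only among genes without overlap between the groups, so this is fixed for them. Xbp1 and Mzb1 did not overlap either, beside 8.3% of all genes in this direction. Without the antibody-secreting cells Xbp1 differed by 0.30 on the log2 scale (adjusted p = 0.68) and Mzb1 by 0.20 (0.78), and Derl3 no longer passed the filter on low counts. Igkc, at 28911, 7619 and 27326 against 72960, 58084 and 201019 CPM, did not pass the test with all B cells (2.38 ± 0.53, adjusted p = 0.055) and differed by -0.05 without them. That setting called 56 of 6078 genes (0.921%), 49 of them among the 80.

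Promoters are given for the 2 of these 21 genes with the largest fold changes apart from the V genes and the oocyte gene Oosp1. The 21 were grouped by the cells that held their UMIs, and shared control of their promoters was not tested. Capitals mark CCACG on either strand, the core of the stress response element of the endoplasmic reticulum that XBP1 and ATF6 can bind, and in Derl3 also the ATTGG that completes a whole element. Both are the 250 bases before the transcript start, 5' to 3' on the gene's own strand, from RefSeq on GRCm38.p6, at chr10:75893148-75893397 (plus strand) for Derl3 and chr16:17132384-17132633 (minus strand) for Sdf2l1.
Derl3: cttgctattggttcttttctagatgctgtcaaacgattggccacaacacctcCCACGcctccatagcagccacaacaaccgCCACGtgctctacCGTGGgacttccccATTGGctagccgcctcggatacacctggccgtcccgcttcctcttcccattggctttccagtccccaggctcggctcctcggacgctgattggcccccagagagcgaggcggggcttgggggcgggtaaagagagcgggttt
Sdf2l1: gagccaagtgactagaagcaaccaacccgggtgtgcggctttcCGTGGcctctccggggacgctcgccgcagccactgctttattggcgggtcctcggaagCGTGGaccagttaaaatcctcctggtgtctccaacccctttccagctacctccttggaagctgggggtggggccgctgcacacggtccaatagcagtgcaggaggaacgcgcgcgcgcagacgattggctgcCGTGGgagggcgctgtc
Each of these 2 promoters held CCACG 3 times. Promoters were found in RefSeq for 16 of the 21 genes, with the 50 bases after the start included in the search, and of their 24 promoters 11 (45.8%) held the motif, against 32.8% of all 32851 promoters. The whole element, CCAAT followed after any 9 bases by CCACG, on either strand, was in 0.119% of all promoters and in Derl3 alone of the 16. A match describes the letters in this window and is no evidence that a factor bound there.

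A second group of 13 of the 44 higher genes had at least 50% of its knockout UMIs in the 14 Nlrp3-/- B cells with endothelial UMIs. Kdr and Egfl7 are among the 9 genes that define these cells, so their place in this group is fixed by the definition. Cxcl12, the chemokine that retains B cells in marrow and is made by vessel and stromal cells, stood at 4.41, 15.1 and 2.07 CPM in wild type and 571, 132 and 38.2 CPM in Nlrp3-/- (4.64 ± 0.93, adjusted p = 0.035), with 96.8% of the knockout UMIs in those cells. Kdr, the main VEGF receptor of blood vessels, stood at 2.94, 2.74 and 0 against 52.6, 25.4 and 51.5 CPM (4.05 ± 0.61, adjusted p = 0.0094). Gask1b, Thbd and Cd34 belonged to this group as well. Like Cxcl12 and Kdr they were named only among genes without overlap, so their lack of overlap is fixed by the naming. Without TMM scaling and with the antibody-secreting cells left out, the summed level of 10 endothelial markers was 93.5 to 340 CPM in wild-type B cells and 577 to 1861 CPM in Nlrp3-/- B cells, and in the other barcodes it ran from 346 to 701 CPM. None of the 10 was at 0 in a knockout library, and 0, 1 and 5 were at 0 in the wild-type libraries. Without the 18 B cells with such UMIs, 77 of 6080 genes passed (1.27%), of which 56 were among the 80.

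Among the 36 lower genes, 15 had at least 50% of their wild-type UMIs in the 61 wild-type B cells with more than 20 S100a8 and S100a9 UMIs. Such cells numbered 21, 31 and 9 in the wild-type libraries and 0, 15 and 8 in Nlrp3-/-. They included the chemokine genes Ccl3, Ccl4, Ccl6, Cxcl2 and Cxcl3, and also Slc7a11, Tyrobp, Lilr4b and Pla2g7. Cxcl2, a chemokine that recruits neutrophils, stood at 643, 2503 and 1346 CPM in wild type and 316, 128 and 359 CPM in Nlrp3-/- (-2.53 ± 0.47, adjusted p = 0.028), with 83.6% of its wild-type UMIs in those cells. Ccl3, Cxcl3, Acod1 and Asprv1 were of the same group, with 89.4% to 93.7% of their UMIs there, and Cxcl1 had 37.9%. The summed level of 10 neutrophil markers, computed like that of the endothelial markers, was 20319 to 29091 CPM in wild-type B cells and 313, 18096 and 19947 CPM in Nlrp3-/- B cells, with 6 of the 10 at 0 in Nlrp3-/- replicate 1 and none at 0 elsewhere. None of the 10 passed the test between genotypes. T cells held S100a8 in 21.3% to 52.6% of thinned cells against 16.7% to 54.1% of B cells. Removing the B cells with T cell genes, more than 5 Hbb-bs UMIs or more than 20 S100a8 and S100a9 UMIs left 43 of 6046 genes (0.711%), 33 higher and 10 lower.

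**Figure D5:**
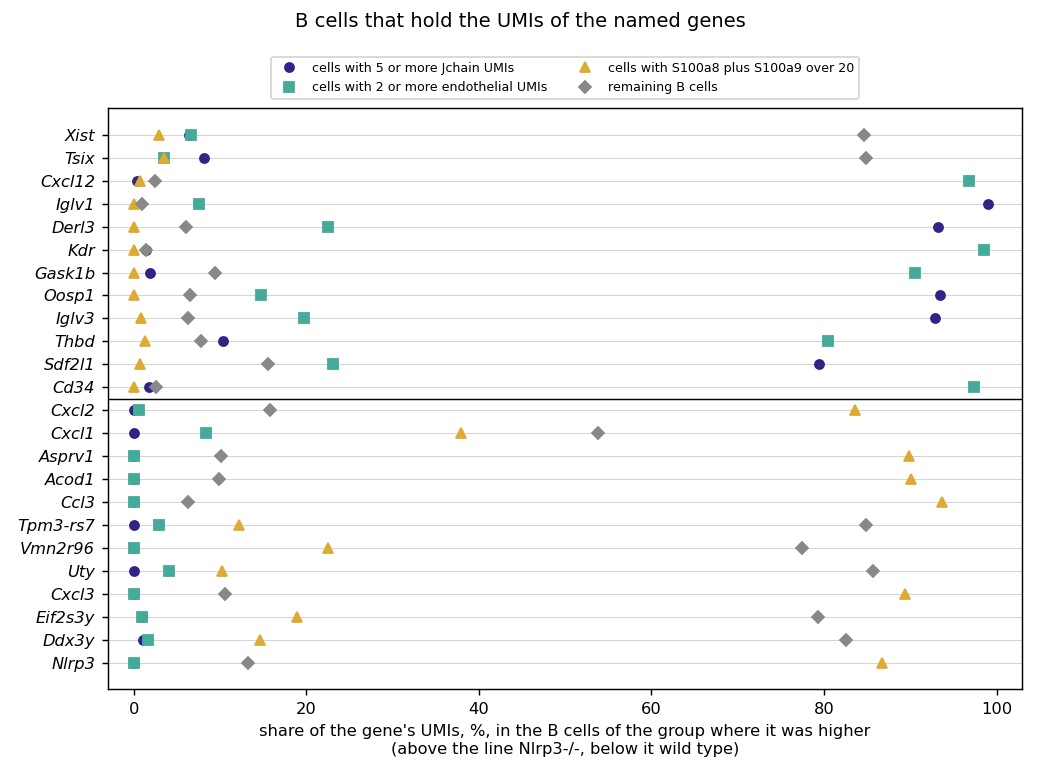
B cells that hold the UMIs of the 24 named genes, in the group where each gene was higher (Nlrp3-/- above the line, wild type below it). Each symbol gives the percent of the gene's UMIs in 1 set of B cells, and shares can add up to more than 100% because 2 cells belong to 2 sets. Derl3, Sdf2l1, Oosp1, Iglv1 and Iglv3 lie in cells with Jchain, Cxcl12, Cd34, Gask1b, Thbd and, by definition, Kdr in cells with endothelial UMIs, and Nlrp3, Ccl3, Cxcl2 and Acod1 in cells with S100a8 and S100a9.

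In the remaining 10 higher and 21 lower genes none of these 3 sets held 50% of the UMIs. Some were divided, as Dab2 had 49.2% and Nedd4 39.1% of their knockout UMIs in the cells with endothelial UMIs. With these 3 sets and the B cells with T cell or Hbb-bs UMIs removed, 15 of 5585 genes passed (0.269%), and 14 of them were among the 80. Xist, Tsix and the X-linked Mid1 were higher, with mt-Nd6, a mitochondrial subunit of complex I, and the predicted gene Gm8797. The median share of mitochondrial UMIs in a B cell was 1.88%, 1.83% and 2.29% in wild type and 2.62%, 3.86% and 3.11% in Nlrp3-/-, without overlap, and its part in the mt-Nd6 difference was not tested. Ifi27l2a, an interferon-induced gene, was lower, at 974, 709 and 444 CPM in wild type and 301, 206 and 145 CPM in Nlrp3-/- with all B cells (-1.78 ± 0.31, adjusted p = 0.017) and by 1.62 on the log2 scale with the sets removed (adjusted p = 0.011). Uqcrq, a subunit of respiratory complex III that lies near Nlrp3 (chr11:53427922-53430831), stood at 259, 296 and 232 against 150, 112 and 153 CPM (-0.96 ± 0.20, adjusted p = 0.045, and -1.27 with 0.014 after the removal). The chemokine Ccl6, Ddx3y and Eif2s3y, and Tpm3-rs7, Gm42031, Gm47015 and Gm43305 also stayed below. Tpm3-rs7, Vmn2r96 and Gm8797 have near-identical copies elsewhere, so their counts are uncertain.

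Several further genes passed with all B cells but not after the removal. Cd86, the ligand through which an activated B cell costimulates T cells, stood at 67.7, 65.7 and 57.9 CPM in wild type and 15, 24.0 and 22.9 CPM in Nlrp3-/-, a difference of -1.49 ± 0.26 (adjusted p = 0.017) that was -1.26 (0.10) without the 3 sets. Bcl2l11, which encodes the death factor BIM, stood at 194, 218 and 170 against 113, 105 and 72.5 CPM (-1.04 ± 0.22, adjusted p = 0.046), and the cell cycle inhibitor Cdkn1a at 156, 162 and 165 against 67.6, 78.3 and 89.7 CPM (-0.996 ± 0.198, adjusted p = 0.034). Neither gene overlapped between the groups, beside 9.87% of all genes that lay lower without overlap. Both kept their direction after the removal, at -0.75 and -0.74 (both adjusted p = 0.29). The transcription factor Tcf4 was higher, at 177, 179 and 172 against 421, 296 and 328 CPM (0.95 ± 0.19, adjusted p = 0.032), and 0.65 after the removal. Tcf4 is also 1 of 10 markers of plasmacytoid dendritic cells, whose summed level without TMM scaling and without the antibody-secreting cells was 337 to 496 CPM in wild type and 586 to 1417 CPM in Nlrp3-/-. Of these markers Klk1, Cd300c and, by the rule, Siglech were at 0 in all 6 libraries. The 3 that were tested, Tcf4, Bst2 and Ly6a, had positive differences, and Tcf4 alone passed. Of the knockout Tcf4 UMIs 154 of 648 lay in the cells with endothelial UMIs, and of the wild-type ones 40 of 334. The part of either in the Tcf4 difference was not tested.

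MHC class II genes shared the sign of their differences, while the test called 1 of them. All 15 genes of antigen presentation were tested and all 15 had a negative log2 difference, between -1.07 and -0.04, with a median of -0.62 against 0.00 over all genes tested. One of them, H2-Ob, passed the test, beside 0.559% of all genes called lower, and levels did not overlap in 7, against 9.87% of all genes in this direction. H2-Ob, part of the chaperone that limits peptide loading in B cells, stood at 288, 316 and 248 CPM in wild type and 150, 147 and 158 CPM in Nlrp3-/- (-0.91 ± 0.18, adjusted p = 0.036). H2-Aa stood at 1894, 2443 and 1602 against 1353, 1073 and 1574 CPM (-0.57 ± 0.23, adjusted p = 0.32), and Cd74 varied most among the wild-type libraries, at 10437, 11898 and 5694 against 5584, 4585 and 6198 CPM (-0.78 ± 0.28, adjusted p = 0.27). Antibody-secreting cells, which hold little class II, moved with the group, and without them the median was -0.47 and no gene of the list passed, with H2-Ob at an adjusted p of 0.081.

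The core of the B cell programme gave no call, beside 1.24% called over all genes. With Cd79a and Ms4a1 of the rule left aside, none of 13 genes of the B cell receptor and its coreceptors passed, with a median log2 difference of -0.17, none of 24 signalling genes from Syk to Nfatc1 (median -0.01), and none of 21 transcription factors of the lineage (median 0.16). Levels did not overlap between the groups in 5 of the 13, 4 of the 24 and 1 of the 21, beside 18.2% of all genes. Ighm, at 2634, 2701 and 3665 CPM in wild type and 2412, 3961 and 2422 CPM in Nlrp3-/-, differed by -0.03 ± 0.25. Of the maturation lists, none of 12 tested immature genes and none of 14 tested mature follicular genes passed. Levels did not overlap in 1 of the 12, Cd93, and in 1 of the 14, Fcer2a, beside 18.2% of all genes. Fcer2a differed by -0.99 ± 0.31 (adjusted p = 0.19), Ccr7 by -1.11 ± 0.32 (0.15) and Cd93 by 1.25 ± 0.33 (0.11), and only Ccr7 of these overlapped between the groups. Of the knockout Cd93 UMIs, 60.1% lay in the cells with endothelial UMIs, as did 34.0% of the wild-type ones.

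The other lists were quiet outside the genes already named, to be read beside the 0.684% of all genes that were called higher and the 0.559% called lower. Of 8 tested plasma cell genes 4 rose (Xbp1, Mzb1, Derl3 and Ssr4), with a median of 1.85 that was 0.13 without the antibody-secreting cells, where no gene of the list passed. In the lists of marginal zone and B-1 genes (9 tested) and of memory genes (3 tested), the calls were Mzb1 and Cd86. Of 13 survival genes Bcl2l11 fell, and of 9 interferon-stimulated genes Ifi27l2a fell. Of 8 inflammasome genes Nlrp3 and Il1r2, a decoy receptor with 83.7% of its UMIs in the cells with neutrophil genes, fell, while Pycard, Casp1, Aim2 and Gsdmd did not pass. None passed among 16 trafficking genes, 14 cytokine receptors, 7 cytokines, 6 genes of innate sensing, 20 immediate early genes and the 1 tested germinal centre gene, Bcl6. Of 8 immunoglobulin constant regions other than Ighd none passed. Counts of single switched classes rested on few cells, as Ighg2b stood at 16.2, 2.74 and 5003 CPM in wild type and 13438, 7937 and 70.6 CPM in Nlrp3-/-.

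The closest relatives allowed a test of whether genotype differences were particular to the B cells. The difference between the genotype effect in B cells and that in pro-B and pre-B cells passed an adjusted p of 0.05 for 17 of 8240 genes (0.206%, edgeR quasi-likelihood test with the library as a block), with 691 genes at an unadjusted p under 0.05. Mzb1 rose by 2.16 ± 0.27 more on the log2 scale in B cells than in precursors (adjusted p = 0.0033). For Jchain the effect in B cells minus that in precursors was -7.42 ± 0.42 (adjusted p = 1.7e-07). The B cells themselves held 1407 Jchain UMIs in wild type and 8474 in the knockout. Precursors held 6 cells with 5 or more Jchain UMIs, all in the knockout. Without the cells of both types with 5 or more Jchain UMIs, 4 genes passed, namely Ctla2a, Egfl7, Cxcl12 and Igfbp7, which are expressed in vessels or stroma. Leaving out Nlrp3-/- replicate 2 gave 74 genes and leaving out wild-type replicate 2 gave 7. Cd86, Ifi27l2a and the MHC class II genes were not among the 17. The pro-B and pre-B cells alone gave 32 of 9488 genes between the genotypes (0.337%).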

How the data were processed

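The 6 single-cell libraries from the healing insertion were analysed, 3 wild type and 3 Nlrp3-/-, grouped by their titles, with the library as the replicate. Counts were used as deposited: per the file headers and the labels, the authors aligned 10x Chromium 3' reads to mm10 and counted UMIs per gene and barcode with Cell Ranger, given as 2.1.1 in the submitters' processing notes and as version 4 in the file headers. The B cells and the gene lists were chosen with earlier results of these data known.

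Barcodes were filtered and B cells selected by the rule above. Counts were summed per library and tested with edgeR 4.0.16 in R 4.3.3 (TMM factors, filterByExpr, glmQLFit and glmQLFTest, Benjamini-Hochberg adjustment at 0.05), with DESeq2 1.42.0 as an alternative. Standard errors were the log2 difference divided by the square root of the F statistic. Shares were compared by two-sided exact permutation tests over libraries, and cells were thinned to 1000 UMIs where shares of cells with a UMI were compared, which left out no B cell. Background shares came from at most 500 cells per type and library. T cells held at least 2 UMIs of Cd3d, Cd3e or Cd3g and none of Cd79a. Pro-B and pre-B cells held at least 2 UMIs of Cd79a and at least 1 UMI of Vpreb1, Igll1 or Dntt. Neutrophils held at least 1% S100a8 and S100a9 and no UMI of Cd79a. All of these sets also met the Siglech, C1q and collagen limits of the B cell rule. Doublets were scored with Scrublet in scanpy 1.11.5 and kept, with their removal as an alternative. Genes named were the 12 with the largest fold change in each direction among those called, at 20 CPM or more in a group, without overlap and not predicted genes, together with list members, and other names were chosen after their values were seen. A fold is not given for a gene at 0 in a group. On simulated counts for 6133 genes, the test recovered 100% of 4-fold and 44% of 2-fold changes with 7 false calls. The changes were placed only in genes above the median count and were the same in all knockout libraries. Differences that rest on a few cells were not simulated, so these rates do not cover them. Wilson intervals and the limits that a count of 0 allows (3 counts) cover counting error only. Gene positions came from GENCODE on GRCm38.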

Additional observations from a re-analysis of the deposited data

Results flagged for a closer look

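The genotype difference in B cells departed from that in pro-B and pre-B cells of the same libraries for 17 genes, by edgeR's test of the difference itself at an adjusted p of 0.05. Values are the log2 difference in B cells minus that in precursors. Jchain was at -7.42, with 6 precursor cells of the knockout holding 5 or more of its UMIs. The difference was positive for Selenom at 3.13, Prdx4 at 2.43, Sdf2l1 at 2.30, Mzb1 at 2.16, Ssr4 at 1.67, Cnpy2 at 1.60, Krtcap2 at 1.34 and Ppib at 0.91. Genes found in vessels or stroma were higher as well, with Cxcl12 at 5.36, Aplnr at 4.61, Igfbp7 at 3.88, Egfl7 at 3.27 and Ctla2a at 2.70. Tmem176a stood at 2.63, Tmem176b at 2.13 and Lgals1 at 0.97. Without the cells of both types with 5 or more Jchain UMIs, 4 of these differences were called, and the part of the 18 cells with endothelial UMIs was not tested.

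Barcodes with at least 5 Jchain UMIs and at least 10% immunoglobulin UMIs were also found among those that the rule for B cells left out. They were counted as 17, 8 and 10 in the wild-type libraries and 56, 61 and 36 in the Nlrp3-/- libraries, or 0.135%, 0.0516% and 0.101% against 0.254%, 0.516% and 0.268% of barcodes past the filter. Each number is all such barcodes of a library less its antibody-secreting B cells. In Nlrp3-/- replicate 1, 2 of the 3 cells taken off held under 10% immunoglobulin, so 56 and 0.254% are too low. All 3 knockout libraries lay above all wild-type libraries (means 0.0957% ± 0.0417 in wild type and 0.346% ± 0.147 in Nlrp3-/-, SD, n = 3 each, the latter computed with the 0.254%). The Jchain limit was set after the counts were seen, so this difference is described without a test. By these counts the barcodes numbered 188 in all, which is too low for the same reason.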

How the results depend on the processing

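Settings that left out antibody-secreting cells, cells with endothelial UMIs, or all marked cells together, or that thinned every cell, were chosen after seeing the data. The number of genes called between genotypes was 80 and moved to 439 without a filter on low counts, 48 with at least 3 Cd79a UMIs, 41 without cells scored as doublets, 43 without cells with other markers, 12 after thinning, 15 without antibody-secreting cells and cells with endothelial or other markers, and 40 without antibody-secreting cells and Nlrp3-/- replicate 1. Leaving out 1 library gave 12 (wild-type replicate 2) to 91 genes, with 44 without Nlrp3-/- replicate 3. DESeq2 called 114 of 7576. The difference from precursors (17 genes) was 4 without antibody-secreting cells and 7 to 74 leaving out 1 library, the 74 without Nlrp3-/- replicate 2.

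The share of B cells, -0.118 percentage points for knockout minus wild type, was 0.0970 among barcodes with a Ptprc UMI and ran from -1.43 to 0.870 leaving out 1 library, above 0 without Nlrp3-/- replicate 1 (0.870) or 3 (0.207). The lambda share ran from -0.124 (without Nlrp3-/- replicate 2) to 2.14, Cd93 from 1.40 to 4.03, Fcer2a from -3.10 to -0.373, Ighd from -13.5 to -8.76 and the switched share from 5.03 to 8.13 points. Mzb1 between genotypes turned to -0.0595 and Tmem176b between genotypes to -0.0525 without antibody-secreting cells and Nlrp3-/- replicate 1, and without antibody-secreting cells and cells with endothelial or other markers Ssr4 turned to -0.0229 and Tmem176b to -1.48 (log2). Leaving out single libraries gave Mzb1 values up to 2.53 and Tmem176b values up to 2.28. Of 1607 values for the 80 genes over 22 settings, 1087 kept direction and call, 516 kept direction only and 4 reversed. The causes were not tested.

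With the replicate number as a replicate block, 110 genes were called (80 higher and 30 lower), 64 of them among the 80, and the share differed by -0.118 points. Deviations of libraries of the same number correlated at -0.036, -0.172 and -0.101, so the numbers were not taken as pairs. The 48 B cells of Nlrp3-/- replicate 1 and the median of 1569 to 1822 UMIs per cell limit what low genes can show.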
